A study of Homo sapiens with 3 samples.

Results

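RBCK1, RNF31 and SHARPIN encode the subunits of the linear ubiquitin chain assembly complex (LUBAC), and OTULIN, CYLD, SPATA2, TNFAIP3 and TNIP1 encode proteins that remove linear ubiquitin chains, bind them or bring such an enzyme to them. The 8 genes were chosen by name from a table of 44591 genes. All 8 had an entry, and all 8 passed a filter of a mean of at least 1 RPKM (reads scaled to gene length and to library depth), which 12403 genes passed. The RNA came from Caki-1, an established human clear cell renal carcinoma line, 48 h after transfection. The siRNAs were a non-targeting control (si-Control) or 1 of 2 siRNAs against RBCK1, which is also named HOIL-1 (si-RBCK1 #1 and si-RBCK1 #2), and the general transfection method names 10 nmol/L siRNA. With 3 libraries, 1 for each condition, replicates were lacking and no p-value was computed for any difference. Both si-RBCK1 libraries are set against the same si-Control library, and they come from different reagents and were not averaged.

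LUBAC joins ubiquitin molecules head to tail into linear chains. RNF31 (HOIP) holds the catalytic centre that forms the linear bond, RBCK1 and SHARPIN stabilise the complex, and the subunits bind one another. Linear chains form on signaling complexes of TNF and Toll-like receptors, where they recruit the IKK complex through IKBKG (NEMO), help to activate NF-kB and restrain cell death. OTULIN cleaves linear chains, CYLD cleaves linear and some other chains, and SPATA2 bridges CYLD to RNF31. TNFAIP3 binds linear chains through a zinc finger and works with its partner TNIP1, itself a linear chain binder, to damp NF-kB signaling.

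The siRNAs are shown because their sites show what part of the targeted mRNA each one addresses. Each sense strand is written 5′ to 3′, and capitals mark the bases that pair with guide positions 2 to 8, the seed.
si-RBCK1 #1: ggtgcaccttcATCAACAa
si-RBCK1 #2: ggattaccagcGATTTCTa
In the longest protein-coding RBCK1 transcript of GENCODE release 29 (2774 nt, 12 exons), the site of si-RBCK1 #1 spans bases 1307 to 1325 in exon 6, at chr20:419577-419595 of GRCh38 on the plus strand. The site of si-RBCK1 #2 spans bases 1749 to 1767 in exon 9, at chr20:427327-427345. Both sites are exonic and lie in the coding sequence, which runs from base 706 to 2235 and holds 510 codons. The first site covers codons 201 to 207, in the part that encodes the NZF zinc finger, a ubiquitin-binding fold, and the second covers codons 348 to 354, in the part that encodes the RBR ligase region. Of the 15 annotated RBCK1 transcripts, 7 hold the first site and 8 hold the second. Neither 19-base sequence was found in the longest coding transcript of any other gene (0 genes).

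The reads behind the values were recovered from the RPKM steps of short genes, with totals of 36926834 in the si-Control library, 40442939 in si-RBCK1 #1 and 36344428 in si-RBCK1 #2. Of the 12403 genes, 12388 (99.9%) gave whole reads in all 3 libraries (within 0.001 of a whole number), all 8 genes described here among them. Of 8 markers of renal epithelium and renal carcinoma, 5 (PAX8, KRT8, KRT18, VIM and MET) were at 1 RPKM or more in every library, while PAX2, CA9 and LRP2 were at most 0.0642 RPKM. Of the endothelial markers 0 of 3 reached 1 RPKM in every library, and so did 1 of 3 leukocyte markers (CD68) and 1 of 3 fibroblast markers (COL1A1). PTPRC and CD3E, which define leukocytes and T cells, were at most 0.0223 and 0 RPKM. The summed level of the 8 renal markers was 1090 RPKM in si-Control and 2020 RPKM in each si-RBCK1 library. Most of this difference was VIM, at 664, 1512 and 1392 RPKM in si-Control, si-RBCK1 #1 and si-RBCK1 #2. KRT8 and KRT18 were also higher with both siRNAs, whereas PAX8 (124, 82.5 and 107 RPKM) and MET (144, 112 and 109 RPKM) were lower. The part of these markers in the differences below was not tested.

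With si-Control, the 8 genes spanned 3.73 to 96.8 RPKM. The order of levels, which are per gene length, was TNIP1, RBCK1, SHARPIN, CYLD, RNF31, OTULIN, SPATA2 and TNFAIP3. Neighbours in this order lay apart beyond their exact Poisson intervals (95%) on reads, except OTULIN and SPATA2 and then SPATA2 and TNFAIP3. TNIP1 was above 94.9% of the protein-coding genes that passed the filter, RBCK1 above 82.2%, SHARPIN above 70.1% and TNFAIP3 above 21.5%. Within LUBAC, the RBCK1 mRNA was thus the most abundant per length and RNF31, the catalytic subunit, the least. RBCK1 stood at 5.94 times RNF31 and at 1.69 times SHARPIN in si-Control.

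**Figure D1:**
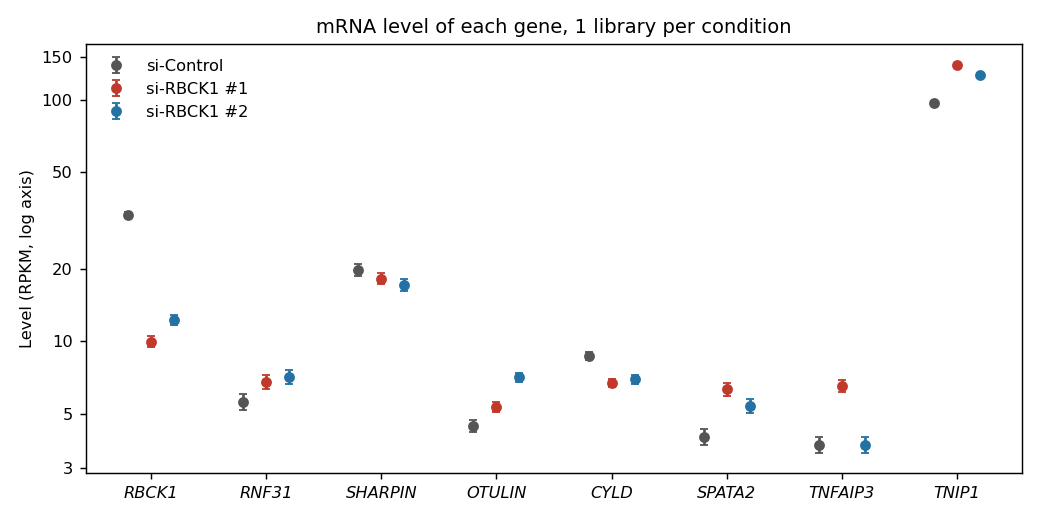
The level of each gene in RPKM is plotted on a log axis, 1 point per library, with exact 95% Poisson intervals that cover counting error only. RBCK1 is at 33.3 RPKM in si-Control and at 9.97 and 12.3 RPKM in the si-RBCK1 libraries, while SHARPIN stays between 17.0 and 19.8 RPKM.

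The targeted gene RBCK1 is placed by the table on the plus strand of chromosome 20, from 388694 to 412783, and the submitters' processing notes name hg19 as the build. Its level was 33.3 RPKM with si-Control (5294 reads), 9.97 RPKM with si-RBCK1 #1 (1735 reads) and 12.3 RPKM with si-RBCK1 #2 (1917 reads). RBCK1 was thus lowest with si-RBCK1 #1, and both targeted libraries lay far below the control. With 1 RPKM added to each value, a step that shrinks the change of low genes, the log2 ratios to si-Control were -1.65 and -1.37. The direct log2 ratio of reads between the siRNAs, si-RBCK1 #2 over si-RBCK1 #1, was 0.30 (exact 95% Clopper-Pearson interval 0.20 to 0.39). Such intervals cover counting error only, not the spread between cultures. Counts past 2-fold or 1.5-fold are given throughout on the log2(RPKM + 1) scale. RBCK1 was the 1 of the 8 genes past 2-fold in each library, against 6.18% of all genes with si-RBCK1 #1 and 4.76% with si-RBCK1 #2. In the lower direction, 1.41% of all genes were past 2-fold in both.

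RNF31, on chromosome 14 from 24616084 to 24629870 (plus strand), went the other way from RBCK1. It was at 5.61 RPKM with si-Control (757 reads), 6.80 RPKM with si-RBCK1 #1 (1004 reads) and 7.11 RPKM with si-RBCK1 #2 (944 reads). Both si-RBCK1 libraries were above the control, by log2 ratios of 0.24 and 0.29. On reads these were 0.28 (interval 0.14 to 0.41) and 0.34 (interval 0.20 to 0.48). The siRNAs did not differ beyond counting error for RNF31, with a log2 ratio of si-RBCK1 #2 over si-RBCK1 #1 of 0.07 (interval -0.06 to 0.19).

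SHARPIN, the adaptor subunit with a part that resembles the N-terminal domains of RBCK1, lies on chromosome 8 from 145153536 to 145159140 on the minus strand. Its levels were 19.8 RPKM with si-Control (1325 reads), 18.1 RPKM with si-RBCK1 #1 (1333 reads) and 17.0 RPKM with si-RBCK1 #2 (1125 reads). Both si-RBCK1 libraries were slightly lower, with log2 ratios of -0.12 and -0.20, and 80.4% and 64.4% of all genes had a larger change in the same 2 comparisons. On reads the log2 ratios were -0.12 (interval -0.23 to -0.01) and -0.21 (interval -0.33 to -0.10).

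Among the LUBAC subunits RBCK1 alone was past 2-fold, on either scale, and the proportions of the 3 mRNAs were different in the si-RBCK1 libraries. RBCK1 over RNF31 was 5.94 in si-Control, 1.47 with si-RBCK1 #1 and 1.72 with si-RBCK1 #2, as ratios of RPKM. By RPKM, SHARPIN instead of RBCK1 was the highest subunit in both si-RBCK1 libraries. The length behind the RPKM of RBCK1 was 4303 nt, while its longest coding transcript has 2774 nt. For SHARPIN these lengths were 1816 and 1765 nt. The order of RBCK1 and SHARPIN with si-RBCK1 #2 therefore depends on the length used. RBCK1 over SHARPIN was 1.69 in si-Control and 0.549 and 0.719 in the targeted libraries. The summed RPKM of the 3 subunits was 58.7, 34.9 and 36.4 in the order si-Control, si-RBCK1 #1 and si-RBCK1 #2.

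**Figure D2:**
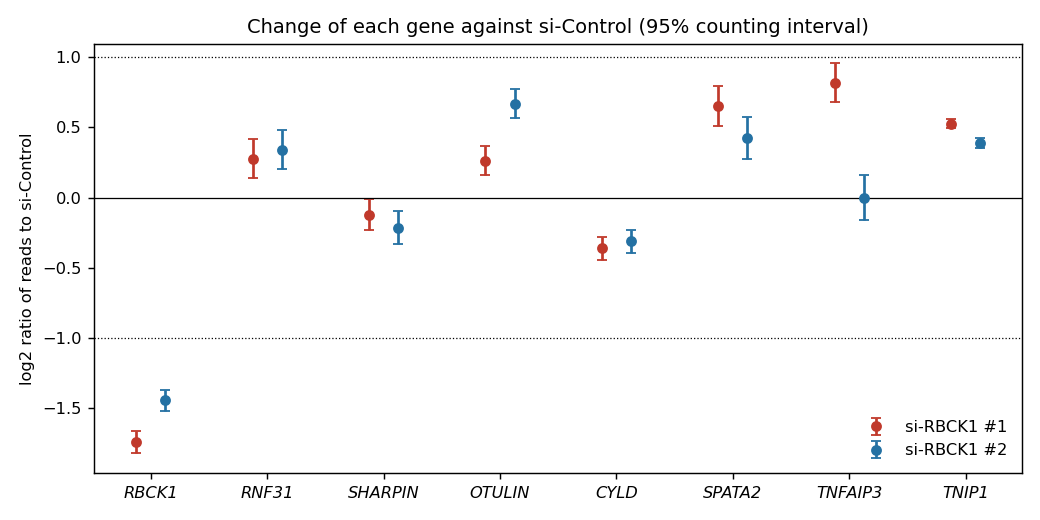
The log2 ratio of reads to si-Control is plotted for each gene and siRNA, with exact 95% intervals for counting error and dotted lines at 2-fold. RBCK1 alone is past 2-fold, CYLD and SHARPIN are below 0 with both siRNAs, and TNFAIP3 differs between the siRNAs.

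The deubiquitinases did not move as one group. OTULIN, the linear chain deubiquitinase on chromosome 5 from 14664754 to 14699959 (plus strand), was at 4.47 RPKM with si-Control (1328 reads), 5.37 RPKM with si-RBCK1 #1 (1745 reads) and 7.11 RPKM with si-RBCK1 #2 (2077 reads). It was higher in both si-RBCK1 libraries, and more so with si-RBCK1 #2. Its log2 ratios of 0.22 and 0.57 became, on reads, 0.26 (interval 0.16 to 0.37) and 0.67 (interval 0.57 to 0.77). The siRNAs differed beyond counting error, by a log2 ratio of reads of 0.41 (si-RBCK1 #2 over si-RBCK1 #1, interval 0.31 to 0.50). OTULIN over RNF31, the enzyme it opposes and binds, was 0.797, 0.789 and 0.999 in the 3 libraries, so the pair kept a similar ratio in si-Control and si-RBCK1 #1.

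CYLD, on chromosome 16 from 50775961 to 50835846 (plus strand), was the deubiquitinase that was lower with both siRNAs. Its levels were 8.67 RPKM with si-Control (2819 reads), 6.75 RPKM with si-RBCK1 #1 (2403 reads) and 6.98 RPKM with si-RBCK1 #2 (2234 reads). The si-RBCK1 libraries lay close to each other and below the control, with log2 ratios of -0.32 and -0.28. On reads these were -0.36 (interval -0.44 to -0.28) and -0.31 (interval -0.39 to -0.23). A difference of this size was common in these libraries, since 50.4% and 53.0% of all genes had a larger change.

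SPATA2, the bridge between CYLD and LUBAC on chromosome 20 from 48519928 to 48532080 (minus strand), went opposite to CYLD. It was at 4.03 RPKM with si-Control (641 reads), 6.33 RPKM with si-RBCK1 #1 (1102 reads) and 5.41 RPKM with si-RBCK1 #2 (847 reads). Both si-RBCK1 libraries were higher, with log2 ratios of 0.54 and 0.35, and on reads 0.65 (interval 0.51 to 0.79) and 0.43 (interval 0.28 to 0.58). CYLD over SPATA2 was 2.15 in si-Control, 1.07 with si-RBCK1 #1 and 1.29 with si-RBCK1 #2.

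TNFAIP3 and TNIP1 are known as genes that NF-kB induces, and the deposited levels can be read beside the NF-kB motifs of their promoters. Each sequence is the RefSeq window from 250 bases before to 50 bases after a transcription start in GRCh38.p14, written 5′ to 3′ on the gene's strand, with matches to the kappaB consensus on either strand in capitals.
TNFAIP3 promoter, chr6:137867009-137867308, plus strand: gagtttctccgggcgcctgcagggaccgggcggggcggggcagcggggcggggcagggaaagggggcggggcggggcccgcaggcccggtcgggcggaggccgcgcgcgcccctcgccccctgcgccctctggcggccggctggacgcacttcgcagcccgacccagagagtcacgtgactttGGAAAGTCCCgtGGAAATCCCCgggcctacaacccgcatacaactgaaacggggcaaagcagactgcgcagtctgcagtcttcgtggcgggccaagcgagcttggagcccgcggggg
TNIP1 promoter, chr5:151080985-151081284, minus strand: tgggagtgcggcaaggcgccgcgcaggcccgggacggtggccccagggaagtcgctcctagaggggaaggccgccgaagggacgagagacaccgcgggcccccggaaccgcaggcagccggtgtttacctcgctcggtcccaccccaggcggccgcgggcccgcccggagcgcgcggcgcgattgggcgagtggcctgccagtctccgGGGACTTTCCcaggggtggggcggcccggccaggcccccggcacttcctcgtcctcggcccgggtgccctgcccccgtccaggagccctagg
The TNFAIP3 window holds 2 matches, which begin 67 and 55 bases before the start, and the TNIP1 window holds 1, which begins 42 bases before it. A second annotated TNIP1 start has 0 matches. Of all 35116 promoter windows, 11.3% hold a match, so a match is a description and not a site shown to be used here. Of the 7 genes of the group with a window in the table, 3 hold a match, the third being CYLD. For the protein-coding genes that passed the filter and have a window, the share was 17.4%.

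TNFAIP3, on chromosome 6 from 138188325 to 138204451 (plus strand), was the gene of the group on which the siRNAs differed most. It was at 3.73 RPKM with si-Control (652 reads), 6.55 RPKM with si-RBCK1 #1 (1256 reads) and 3.72 RPKM with si-RBCK1 #2 (641 reads). Only the si-RBCK1 #1 library stood apart, with a log2 ratio of 0.68, and si-RBCK1 #2 was level with si-Control at 0.00. On reads the log2 ratio with si-RBCK1 #1 was 0.81 (interval 0.68 to 0.95) and with si-RBCK1 #2 it was -0.0016 (interval -0.16 to 0.16). Between the siRNAs, the log2 ratio of reads was -0.82 (si-RBCK1 #2 over si-RBCK1 #1, interval -0.96 to -0.68).

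TNIP1, on chromosome 5 from 150409504 to 150467221 (minus strand), was the most abundant of the 8 mRNAs in every library. Its levels were 96.8 RPKM with si-Control (11138 reads), 139 RPKM with si-RBCK1 #1 (17564 reads) and 127 RPKM with si-RBCK1 #2 (14337 reads). Both si-RBCK1 libraries were higher, with log2 ratios of 0.52 and 0.38, and on reads 0.53 (interval 0.49 to 0.56) and 0.39 (interval 0.35 to 0.42). TNIP1 over TNFAIP3 was 26.0, 21.3 and 34.0 in si-Control, si-RBCK1 #1 and si-RBCK1 #2.

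Of the 7 genes other than RBCK1, RNF31, OTULIN, SPATA2 and TNIP1 were higher than si-Control beyond counting error with both siRNAs, SHARPIN and CYLD were lower with both, and TNFAIP3 was higher with si-RBCK1 #1. These counts are read against a wide background. Counting intervals without 0 were found for 77.7% of all genes with si-RBCK1 #1 (40.2% higher, 37.5% lower), beside 8 of the 8 genes, and for 75.1% with si-RBCK1 #2 (41.0% higher, 34.1% lower), beside 7 of the 8. In both libraries at once, 31.9% were higher and 27.6% lower, beside 4 and 3 of the 8 genes. Between the siRNAs, 62.5% of all genes differed beyond counting error, beside 5 of the 8 (RBCK1, OTULIN, SPATA2, TNFAIP3 and TNIP1). For some genes the recovered reads can be a fraction of the true ones, so these shares of all genes may be too low. At 1.5-fold, 2 of the 8 genes were past the limit with si-RBCK1 #1 (RBCK1 and TNFAIP3, 23.7% of all genes) and 1 with si-RBCK1 #2 (RBCK1, 20.6% of all genes). By direction, 12.1% of all genes were past 1.5-fold higher and 11.6% lower with si-RBCK1 #1, and 11.3% and 9.32% with si-RBCK1 #2. The 7 genes other than RBCK1 therefore lay in the range of common changes in these libraries.

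**Figure D3:**
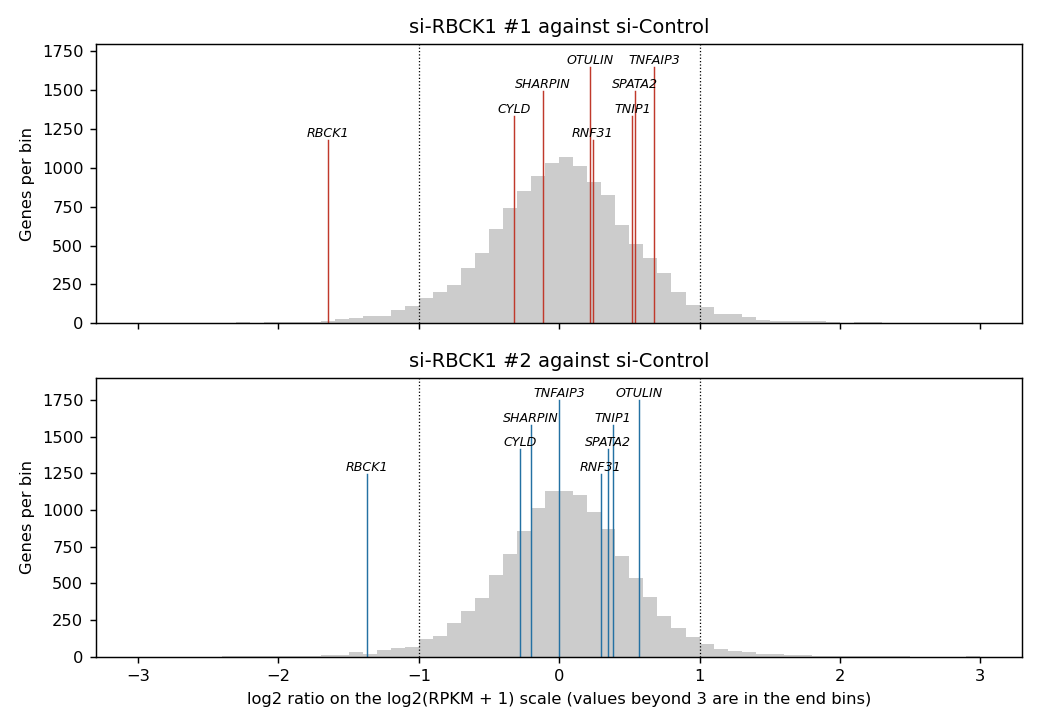
The grey bars count all 12403 genes by log2 ratio on the log2(RPKM + 1) scale, with dotted lines at 2-fold and 1 coloured line for each of the 8 genes. RBCK1 lies in the lower tail with both siRNAs, at -1.65 and -1.37, and the other 7 genes lie between -0.32 and 0.68.

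The order of levels was also different among the genes of lower abundance. With si-RBCK1 #1, RNF31, CYLD, TNFAIP3 and SPATA2 lay between 6.33 and 6.80 RPKM, each overlapping its neighbour in counting error, and OTULIN was lowest. With si-RBCK1 #2, RNF31, OTULIN and CYLD overlapped in this way between 6.98 and 7.11 RPKM, and TNFAIP3 was lowest. TNIP1, SHARPIN and RBCK1 were the upper 3 in both, in that order of RPKM.

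Seed matches were counted in the longest coding transcript of each gene. The letters that pair with the seed, ATCAACA for si-RBCK1 #1, were found in 2 of the 8 genes (RBCK1 and CYLD) and in 23.8% of 10568 genes. Those for si-RBCK1 #2, GATTTCT, were found in 5 of the 8 (RBCK1, OTULIN, CYLD, SPATA2 and TNFAIP3) and in 29.2%. RBCK1 holds both matches by design, so only the other genes can be set beside these shares. Longer transcripts have more room for a match. CYLD (8503 nt), OTULIN (7800 nt), TNFAIP3 (4735 nt) and SPATA2 (4138 nt) were longer than RNF31 (3627 nt), TNIP1 (2935 nt) and SHARPIN (1765 nt). The part of length was not tested. Of the 4 genes other than RBCK1 with the second match, OTULIN and SPATA2 were higher with si-RBCK1 #2 than with si-Control, CYLD was lower and TNFAIP3 was level. SPATA2 and TNFAIP3 were lower with si-RBCK1 #2 than with si-RBCK1 #1, and OTULIN was higher. CYLD did not differ between the siRNAs beyond counting error (log2 ratio of reads 0.05, interval -0.03 to 0.13). Among the genes without this match, TNIP1 was also lower with si-RBCK1 #2 (-0.14, interval -0.17 to -0.11). RNF31 and SHARPIN did not differ beyond counting error. The part of the seeds was not tested.

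Within the other genes of the pathway, 21 of 22 linear chain readers and LUBAC client proteins passed the filter. Of these, 10 were higher and 11 lower with si-RBCK1 #1, and 11 were higher and 10 lower with si-RBCK1 #2, with median log2 ratios of -0.01 and 0.00 (all genes: 0.02 and 0.03). VCP, an ATPase that unfolds ubiquitinated proteins and docks on RNF31, was the 1 gene of this list past 2-fold on the log2(RPKM + 1) scale, at 71.3 RPKM in si-Control, 173 RPKM in si-RBCK1 #1 and 158 RPKM in si-RBCK1 #2. Its log2 ratios were 1.27 and 1.14, against 2.91% and 2.50% of all genes past 2-fold in the higher direction. TAB2, an adaptor of the TAK1 kinase, was the lowest by the mean of both log2 ratios, at 43.0, 22.4 and 21.4 RPKM in the same order (-0.91 and -0.98). On reads, with no pseudocount, TAB2 was also past 2-fold with si-RBCK1 #2, at a log2 ratio of -1.01.

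The 5 partners of TNFAIP3 had medians of -0.13 and -0.14, with 2 higher and 3 lower in each library. TAX1BP1, a ubiquitin-binding adaptor that also serves as an autophagy receptor, was at 60.1, 32.9 and 35.6 RPKM in si-Control, si-RBCK1 #1 and si-RBCK1 #2 (log2 ratios -0.85 and -0.74). TNIP3, a relative of TNIP1 that the list of readers holds too, was at 0.838, 1.41 and 0.841 RPKM, that is, 85, 157 and 84 reads. TNIP3 was higher in the si-RBCK1 #1 library and level in the si-RBCK1 #2 library, with log2 ratios of 0.39 and 0.00. It passed the filter only through its level in the si-RBCK1 #1 library. Its likeness to TNFAIP3 in that library is therefore not read as a result.

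The lists of relatives of the enzymes held genes in both directions. Of 12 other OTU deubiquitinases (the family of OTULIN and TNFAIP3) that passed the filter, of 15, 0 were past 2-fold on the log2(RPKM + 1) scale. The shares of all genes were 6.18% with si-RBCK1 #1 and 4.76% with si-RBCK1 #2, so in short lists a count of 0 does not set a family apart. The OTU medians were 0.12 and 0.10. YOD1 was the highest at 6.07, 12.8 and 9.53 RPKM in si-Control, si-RBCK1 #1 and si-RBCK1 #2 (log2 ratios 0.96 and 0.57), and OTUD6B the lowest at 9.95, 5.54 and 6.45 RPKM (-0.74 and -0.56). Of 43 other ubiquitin-specific proteases, the family of CYLD, 20 were higher and 23 lower with si-RBCK1 #1 and 15 were higher and 28 lower with si-RBCK1 #2. Among all genes, 6393 were higher and 6009 lower with si-RBCK1 #1, and 6641 and 5756 with si-RBCK1 #2. The medians of these proteases were -0.09 and -0.12, and 0 were past 2-fold on the same scale. USP5, which disassembles free ubiquitin chains, was at 23.2, 42.9 and 43.6 RPKM (log2 ratios 0.86 and 0.88), and USP25 was at 10.6, 5.25 and 6.02 RPKM (-0.89 and -0.73). On reads, with no pseudocount, YOD1 (1.07) and USP25 (-1.02) were past 2-fold with si-RBCK1 #1. Of 10 other RBR ligases, the family of RBCK1 and RNF31, 0 were past 2-fold on either scale and the medians were -0.18 and -0.05. ARIH1 (-0.56 and -0.66) and RNF19B (0.51 and 0.36) marked its range by the mean of both log2 ratios.

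The list of other genes induced by NF-kB leaves out genes shown in the heat map of the study. Of 22 other genes induced by NF-kB that passed the filter, 11 were higher and 11 lower with si-RBCK1 #1, and 9 were higher and 13 lower with si-RBCK1 #2. The medians were -0.01 and -0.30. Past 2-fold in the lower direction were 2 of 22 with si-RBCK1 #1 and 8 of 22 with si-RBCK1 #2, against 3.27% and 2.27% of all genes on the log2(RPKM + 1) scale. On reads, PTGS2 (-1.06) and TRAF1 (-1.05) were also past 2-fold lower and CD83 (1.25) past 2-fold higher with si-RBCK1 #2. CXCL8, a neutrophil chemokine, was at 3383 RPKM in si-Control, 1070 RPKM in si-RBCK1 #1 and 667 RPKM in si-RBCK1 #2 (log2 ratios -1.66 and -2.34). IRF1, an interferon regulatory transcription factor, was at 39.7, 17.4 and 14.2 RPKM (-1.14 and -1.42). CD83 was higher, at 1.32, 3.86 and 3.14 RPKM (1.07 and 0.84). Beyond counting error, 8 of the 22 genes were higher and 10 lower with si-RBCK1 #1, and 6 were higher and 13 lower with si-RBCK1 #2, beside 40.2% and 37.5%, and 41.0% and 34.1%, of all genes.

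**Figure D4:**
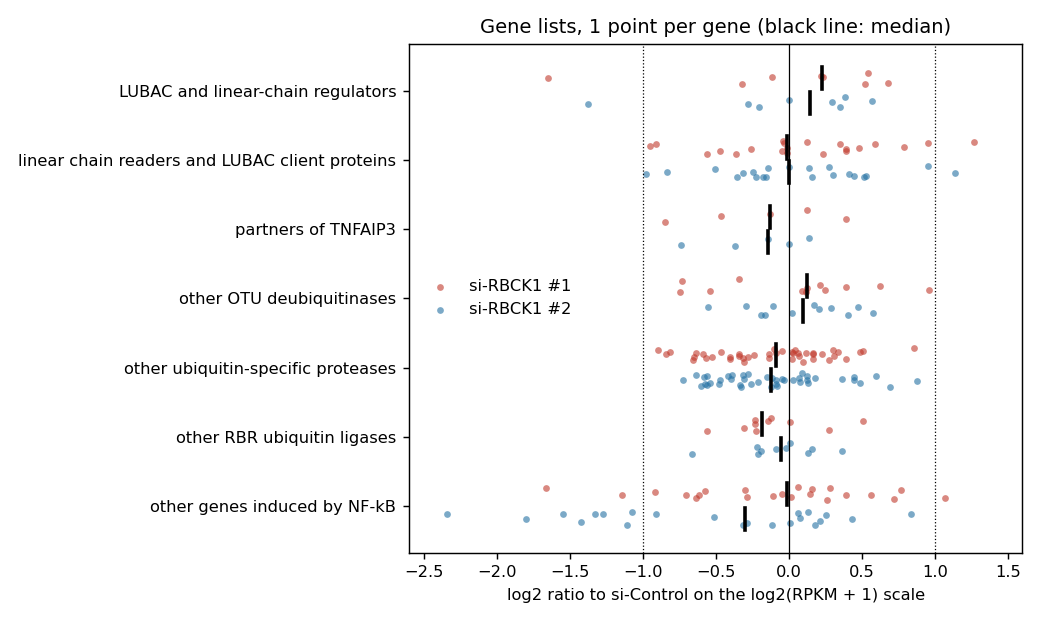
Each point is the log2 ratio of 1 gene to si-Control on the log2(RPKM + 1) scale, by list and siRNA, with black lines at the medians and dotted lines at 2-fold. The NF-kB list reaches from -2.34 to 1.07. The OTU, ubiquitin-specific protease and RBR lists hold 0 genes past 2-fold on this scale, beside 6.18% (si-RBCK1 #1) and 4.76% (si-RBCK1 #2) of all genes.

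By the pair of log2 ratios, the 3 genes nearest to RBCK1 among 7749 protein-coding genes whose mean reached 5 RPKM were PTPRM, TXNIP and CFB. PTPRM, a receptor tyrosine phosphatase, had log2 ratios of -1.62 and -1.27, at a distance of 0.106 from RBCK1. TXNIP, an inhibitor of thioredoxin, had -1.59 and -1.51 (distance 0.149), and CFB, complement factor B, had -1.57 and -1.22 (distance 0.169). The likeness rests on 3 libraries. Besides RBCK1, 22 protein-coding genes were at least as much lower as RBCK1 with both siRNAs.

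Entries of the table that overlap the 8 genes were few. The microRNA gene MIR3181 lies within CYLD on the same strand, at 0, 1.02 and 0.377 RPKM in si-Control, si-RBCK1 #1 and si-RBCK1 #2. At 73 nt the entry is so short that these values stand for very few reads, and no difference is read from them. The antisense and long noncoding genes that overlap CYLD or TNFAIP3 on the other strand were at most 0.169 RPKM. The sources used here do not say whether reads were counted by strand.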

How the data were processed

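RNA from Caki-1 cells was sequenced in 3 libraries, 1 per condition, after ribosomal RNA removal and a directional library kit per the labels. The authors deposited RPKM values per gene and library. The submitters' processing notes name FastQC, Trimmomatic, TopHat2 and HTSeq and the build hg19. How each tool was set is not given in the sources used here. The 5 columns with the authors' own comparison (control and treated values, their fold change and its p-value and q-value) were not used, and 1 entry that is not a number was left out.

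After addition of a pseudocount of 1 RPKM, log2 ratios were computed where the mean over libraries reached 1 RPKM. Library totals came from genes of up to 200 nt whose values equal 1 read. For each gene, the smallest length of up to 50000 nt that gives whole reads in all 3 libraries was taken. This length can be a divisor of the true one, and the reads are then too few and the intervals too wide. For each of the 8 genes described, the length found was at least that of its longest coding transcript. Totals of 36344428 to 40442939 reads set the precision. Intervals are exact (Clopper-Pearson for ratios, Poisson for levels) and cover counting error only. With 1 library per condition no test was run, and each count stands beside its share among all genes. The members and lists were chosen with earlier results of these data known. Genes of the study's heat map were left out of the NF-kB list. In earlier work, some of those genes had deposited values that did not match each other. Named genes of each list were those past 2-fold with both siRNAs in the same direction, plus the highest and lowest by the mean of both log2 ratios. The siRNA sequences came from the study's oligonucleotide list, transcripts from GENCODE release 29 (GRCh38) and promoters from RefSeq (GRCh38.p14). The steps were tested on simulated data. The tools were scipy 1.17.1, pandas 2.3.3 and numpy 2.4.6 under Python 3.11.15, with matplotlib 3.10.9 for the plots.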

Additional observations from a re-analysis of the deposited data

How the results depend on the processing

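No paired analysis was possible because 1 library stood for each condition. Of 80 log2 ratios of the 8 genes under other pseudocounts (0.1 and 5 RPKM), scalings (equal medians or totals) or on recovered reads, 0 changed sign, 68 moved by less than the counting error and 12 by more. RBCK1 ranged from -1.74 to -1.36 with si-RBCK1 #1, and a pseudocount of 5 RPKM, which shrinks low genes by construction, gave 0.41 for TNFAIP3 with si-RBCK1 #1. Scaling shifted the median of all genes by less than 0.06. With a limit of 1.5-fold, 2 of the 8 genes were past it with si-RBCK1 #1.

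Among all genes, counts past 2-fold (si-RBCK1 #1, then #2) were 1346 and 1085 with a pseudocount of 0.1 RPKM, 219 and 198 with 5 RPKM, 455 and 391 with a mean of at least 5 RPKM (fewer genes), and 2934 and 2556 past 1.5-fold. Of 84 list medians, 75 moved by no more than the counting error typical of a single gene in the list. That limit is not the error of a median, so it does not show that a median was stable. In 6 cases the sign changed, 5 of them for the readers and clients. The other 1 (to 0.00, no filter, si-RBCK1 #1) was for the ubiquitin-specific proteases. Among genes whose mean reached 5 RPKM, the medians (si-RBCK1 #1, then #2) were 0.12 and 0.14 for the readers and clients, -0.29 and -0.25 for the partners of TNFAIP3, -0.24 and -0.26 for the ubiquitin-specific proteases and, with si-RBCK1 #1, -0.075 for the NF-kB genes. The OTU median became 0.034 as a mean (si-RBCK1 #1) and 0.024 with no filter (si-RBCK1 #2). The NF-kB value became -0.12 as a mean with si-RBCK1 #1, and with si-RBCK1 #2 it became -0.54 as a mean, -0.12 with no filter and -0.21 with a pseudocount of 5 RPKM. Beyond the construction of the limits and filters, the cause was not tested.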

Other observations

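Of the other NF-kB-induced genes that passed the filter, all 5 chemokine genes were lower with both siRNAs, and more so with si-RBCK1 #2. Besides CXCL8, these were CXCL1 (log2 ratios -0.30 and -1.11), CXCL2 (-0.61 and -1.55), CXCL3 (-0.64 and -1.27) and CCL20 (-0.28 and -1.32). The non-chemokine genes CSF2, ICAM1, IRF1 and PTGS2 of the list were also lower with both siRNAs, and more so with si-RBCK1 #2. BIRC3 was lower with both by less (-0.04 and -0.31). NFKBIA, which encodes the IkB alpha inhibitor, was at 47.4, 78.6 and 56.9 RPKM in si-Control, si-RBCK1 #1 and si-RBCK1 #2 (log2 ratios 0.72 and 0.26). NFKBIE, another IkB gene, was at 6.49, 11.8 and 9.13 RPKM (0.77 and 0.43). NFKBIA and NFKBIE were highest with si-RBCK1 #1, as was TNFAIP3. The list holds further IkB family genes. NFKBIZ was also highest with si-RBCK1 #1, by less (0.26 and 0.18). BCL3 did not share this and differed from si-Control beyond counting error with neither siRNA (-0.11 and 0.07). Being highest with si-RBCK1 #1 was not particular to IkB genes. It also held for TNFAIP8 (0.56 and 0.01), TRAF1 (0.40 and -0.51), CD83 (1.07 and 0.84) and PLAU (0.28 and 0.08). It did not hold for TNFAIP2 (0.14 and 0.22). Apart from CXCL8, IRF1, CD83 and TNFAIP3, these genes were chosen after their values were seen. No test was possible with 1 library per condition.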
